A study of Mus musculus with 6 samples.

Results

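The genes described here encode structural and membrane-spanning proteins of compact myelin: Mbp, Mobp, Mal, Cldn11, Pllp, Cmtm5, Tspan2 and Gpm6b. They were named by symbol, with earlier results of these data known, and all 8 were found among the 39017 mouse gene identifiers of the count table and passed the filter on low counts. RNA had been pulled down with tagged ribosomes from the corpus callosum, the white matter tract between the hemispheres, of C57BL/6 mice. The mice carried RiboTag, an allele that adds an HA tag to the ribosomal protein RPL22 after Cre recombination, and Olig1-Cre, which recombines in cells in which Olig1 is or has been active, so control mice carried the tag and Cre as well. The 3 cuprizone libraries (replicates 30, 31 and 32) came from mice fed 0.2% cuprizone, a copper chelator that damages oligodendrocytes, and the 3 control libraries (replicates 24, 26 and 27) from mice on control diet. Per the labels' protocol the animals were females aged 8 to 10 weeks, fed for 6 or 9 weeks and then returned to control diet for 3 weeks, with the stage at which the cuprizone libraries were made not given in the sources used here. The labels number the libraries but do not say that each came from a separate animal, so p-values measure the spread between these libraries.

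Compact myelin is the stack of oligodendrocyte membrane wrapped around an axon and pressed together until almost no cytoplasm is left. Myelin basic protein (Mbp) and the myelin-associated oligodendrocyte basic protein (Mobp) are positively charged proteins that sit on the cytoplasmic faces, where myelin basic protein glues the apposed membranes. The other genes encode proteins that cross the membrane several times: Mal, Pllp (plasmolipin) and Cmtm5 share the MARVEL domain, Cldn11 is a claudin that builds the tight junction strands of myelin, Tspan2 is a tetraspanin, and Gpm6b belongs to the proteolipid family of myelin and neurons. The messenger RNA of Mbp is carried along oligodendrocyte processes and translated near the sheath.

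Total counts ran from 19455245 to 22381307 in cuprizone libraries and from 18549360 to 18771737 in control libraries. Replicate 32 differed most from the rest of the cuprizone group: a chi-square test of counts gave 85.1 and 101 per degree of freedom for the pairs that include it, 26.6 for replicates 30 and 31, and 24.4 to 30.6 for pairs of controls. For oligodendrocytes 6 lineage markers were read (Olig1, Olig2, Sox10, Mog, Mag and Cnp). Their summed level was 2625 to 4189 CPM (counts scaled to library size) in cuprizone libraries and 10693 to 12451 CPM in control libraries. With no library of RNA from before the pull-down, enrichment for oligodendrocytes could not be measured. Mog, Mag and Cnp are also on the list of other myelin genes below, and the groups overlapped for Olig2. Markers of other cells were also captured. The 7 astrocyte markers summed to 15395 to 29633 CPM in cuprizone libraries, lowest in replicate 32, and to 21742 to 24515 CPM in control libraries, and the 8 microglia and macrophage markers to 1436 to 3328 CPM in cuprizone, highest in replicate 32, and 977 to 1904 CPM in control libraries. The 8 neuron markers summed to 1728 to 3188 CPM in cuprizone and 1453 to 2426 CPM in control libraries, and the 5 ependymal and choroid plexus markers to 118 to 356 CPM in cuprizone and 91.7 to 4580 CPM in control libraries, the last in control replicate 27 and mostly from Ttr.

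Of the 8 compact myelin genes 7 fell in cuprizone by edgeR's quasi-likelihood test at a Benjamini-Hochberg adjusted p of 0.05, and none rose (0 at an unadjusted p under 0.05, and 0 with DESeq2 or limma-voom). Among all 16569 genes tested, 5.70% were lower at that threshold, 1.87% higher and 7.57% past it in either direction. The median log2 fold change of the 8 genes was -2.70, beside 0.02 over all genes tested, and their fold changes ran from -4.74 for Mal to -0.62 for Gpm6b, which did not pass. In all 8 genes every cuprizone library lay below every control library, which held for 17.6% of all genes tested, while 30.2% did not overlap in either direction. In these bulk samples fewer oligodendrocytes and less ribosome-bound RNA per oligodendrocyte cannot be told apart.

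**Figure D1:**
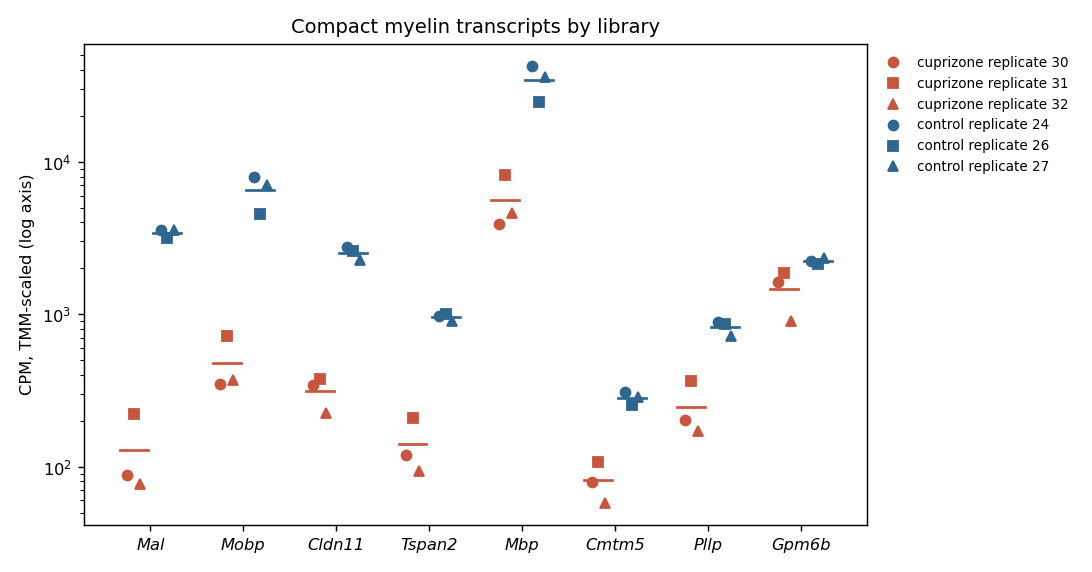
Level of each compact myelin gene in each library, in TMM-scaled CPM on a log axis, with genes ordered by fold change from the largest fall (Mal) to the smallest (Gpm6b). Points are libraries and bars are group means of 3 libraries. Cuprizone replicate 31 is the highest of its group for each gene, and control replicate 26 is the lowest control for Mbp, Mobp, Mal, Cmtm5 and Gpm6b.

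The genes of the cytoplasmic face both fell and had a wide spread among control libraries. Mbp, which had the highest CPM of the 8 genes in every library, also per length of exon, was at 3896, 8233 and 4592 CPM in cuprizone replicates 30, 31 and 32 and at 42597, 24613 and 35880 CPM in control replicates 24, 26 and 27. Replicate 31 was the highest of the cuprizone libraries and replicate 26 the lowest of the controls, and the groups did not overlap. The log2 fold change was -2.62 ± 0.40 (SE), with an adjusted p of 0.0104 that became 0.0558 without cuprizone replicate 30. The Mbp gene also encodes golli transcripts, found in other cells too, and its counts do not separate them from those of myelin basic protein.

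Mobp (ENSMUSG00000032517, chromosome 9, 120149707 to 120181484 in GRCm38, plus strand) was at 349, 720 and 369 CPM in cuprizone replicates 30, 31 and 32 and at 7937, 4552 and 6993 CPM in control replicates 24, 26 and 27. As for Mbp, replicate 31 was high among cuprizone libraries, replicate 26 low among controls, and the groups were apart. Its log2 fold change was -3.76 ± 0.40 (SE, adjusted p = 0.00283). Gm38642 on the same strand overlaps Mobp by 79 exonic bases and was not among the identifiers counted.

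Among the MARVEL genes Mal fell the most of all 8 genes, and Pllp and Cmtm5 fell the least of those that passed. Mal, a lipid raft proteolipid that takes part in sorting membrane proteins to myelin (ENSMUSG00000027375, chromosome 2, 127633226 to 127656695, minus strand), was at 88.8, 220 and 76.5 CPM in cuprizone replicates 30, 31 and 32 and at 3544, 3158 and 3571 CPM in control replicates 24, 26 and 27. The control libraries lay close together, with a coefficient of variation of 6.75%, while replicate 31 was far above the other cuprizone libraries, whose coefficient of variation was 61.8%. Mal was 26.7-fold lower in cuprizone (log2 fold change -4.74 ± 0.47, SE, adjusted p = 0.00223), the fold change ranked 8 from the lowest of 16569 genes. Without cuprizone replicate 31 its log2 fold change was -5.37.

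Pllp encodes plasmolipin, a proteolipid of myelin and of apical epithelial membranes (ENSMUSG00000031775, chromosome 8, 94674894 to 94696278, minus strand). It was at 201, 362 and 171 CPM in cuprizone replicates 30, 31 and 32 and at 895, 858 and 724 CPM in control replicates 24, 26 and 27. Replicate 31 was again the highest cuprizone library and the groups did not overlap. The log2 fold change was -1.75 ± 0.30 (SE, adjusted p = 0.0157), and the adjusted p became 0.0724 without cuprizone replicate 30, 0.0581 without control replicate 24 and 0.0631 without control replicate 26. A gene on the opposite strand, Gm45767, shares 1128 exonic bases with Pllp, and, as the labels and notes name no strand setting for the counting, reads from it cannot be told apart from those of Pllp.

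Cmtm5, known in mouse as a myelin protein needed for the upkeep of axons (ENSMUSG00000040759, chromosome 14, 54936261 to 54939274, plus strand), was at 79.5, 107 and 57.7 CPM in cuprizone replicates 30, 31 and 32 and at 307, 254 and 286 CPM in control replicates 24, 26 and 27. Every control library lay well above the highest cuprizone library, again replicate 31. Its log2 fold change was -1.79 ± 0.23 (SE, adjusted p = 0.00576), close to that of Pllp. Over the 6 libraries the log2 profiles of Pllp and Cmtm5, each set to its control mean, were the nearest pair among the 8 genes, with a root mean square difference of 0.17.

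The junction and tetraspanin genes fell by amounts between those of Mal and Pllp. Cldn11 (ENSMUSG00000037625, chromosome 3, 31149920 to 31164324, plus strand) was at 342, 373 and 226 CPM in cuprizone replicates 30, 31 and 32 and at 2746, 2580 and 2284 CPM in control replicates 24, 26 and 27. The cuprizone libraries were closer together than for the other 7 genes, with a coefficient of variation of 24.7%, and none came near a control. The log2 fold change was -3.02 ± 0.25 (SE, adjusted p = 0.00154).

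Cldn11 is also made by fibroblasts of the meninges. Of 6 meningeal fibroblast markers, Dcn was at 0.27, 0.256 and 3.35 CPM in cuprizone replicates 30, 31 and 32 and at 0.177, 0.0566 and 0.524 CPM in control replicates 24, 26 and 27, and Lum had no count in 1 cuprizone and 2 control libraries. Col1a1 and Col1a2 had log2 fold changes of 0.03 and 0.10 and did not pass, while Ptgds fell, at -3.83 (adjusted p = 0.0246). The summed level of the 6 markers was 25.5 to 119 CPM in cuprizone and 505 to 1146 CPM in control libraries, of which Ptgds, which mature oligodendrocytes also express, made up 58.7%, 93.1% and 73.5% in cuprizone replicates 30, 31 and 32 and 98.4% to 99.3% in control libraries. Col1a2 was at 6.79 to 9.92 CPM in cuprizone and 6.41 to 8.67 CPM in control libraries, and Dcn, Lum, Col1a1 and Slc6a13 reached at most 3.35 CPM in any library.

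Tspan2, a tetraspanin of differentiating oligodendrocytes (ENSMUSG00000027858, chromosome 3, 102734529 to 102801513, plus strand), was at 120, 208 and 94.1 CPM in cuprizone replicates 30, 31 and 32 and at 968, 1006 and 896 CPM in control replicates 24, 26 and 27. Controls differed little, with a coefficient of variation of 5.83%, and the cuprizone libraries lay well below them. The log2 fold change was -2.77 ± 0.31 (SE, adjusted p = 0.00333). The genes Tspan2os and Tshb on the opposite strand had at most 16 counts in any library. Gm42681, also on the opposite strand, was not among the identifiers counted, so its reads cannot be bounded.

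Gpm6b was the exception. This proteolipid of neurons, astrocytes and oligodendrocytes (ENSMUSG00000031342, chromosome X, 166238911 to 166388988, plus strand) was at 1628, 1857 and 901 CPM in cuprizone replicates 30, 31 and 32 and at 2229, 2145 and 2353 CPM in control replicates 24, 26 and 27. Replicate 32 was far below the other cuprizone libraries, and replicates 30 and 31 came close to the lowest control. The log2 fold change of -0.62 ± 0.28 (SE) had an adjusted p of 0.246, and it was -0.36 without cuprizone replicate 32, with an adjusted p of 0.183. Beside it, the summed astrocyte markers were 24968, 29633 and 15395 CPM and the 6 progenitor markers 1043, 1005 and 603 CPM in the same cuprizone libraries, lowest in replicate 32 as for Gpm6b. Replicate 32 was the lowest cuprizone library for Mal, Cldn11, Pllp, Cmtm5 and Tspan2 as well, so this does not set Gpm6b apart. The part of astrocytes and progenitors in the result was not tested.

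The 8 genes together took 0.742%, 1.26% and 0.707% of all counts in cuprizone replicates 30, 31 and 32 and 5.60%, 3.68% and 4.87% in control replicates 24, 26 and 27. This share, which uses no scaling factor, averaged 0.904% ± 0.311 in cuprizone and 4.72% ± 0.968 in control libraries (SD, n = 3 each). An exact 2-sided permutation test gave p = 0.1, the smallest that 3 against 3 libraries allow. Within the summed counts of the 8 genes, Mbp held 65.7% ± 6.69 in cuprizone and 66.7% ± 3.48 in control libraries, a difference smaller than the spread between libraries. Gpm6b held 17.8% ± 5.62 in cuprizone against 4.52% ± 0.921 in control libraries, while Mal held 1.44% ± 0.335 in cuprizone against 6.86% ± 1.14 in control libraries and Mobp 5.62% ± 0.384 in cuprizone against 12.6% ± 0.850 in control libraries.

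**Figure D2:**
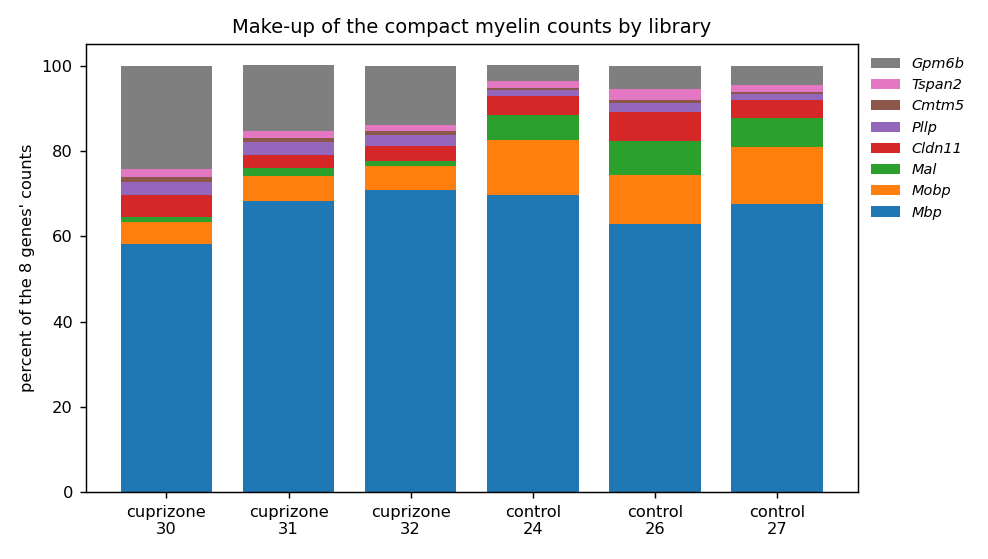
Make-up of the summed counts of the 8 compact myelin genes in each library, in percent, with the 3 cuprizone libraries on the left and the 3 control libraries on the right. The Mbp part is of like size in both groups, the Gpm6b part is 13.9% to 24.3% in cuprizone and 3.64% to 5.48% in control libraries, and the Mal and Mobp parts are smaller in cuprizone.

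Levels per exonic length give the order of the genes within a group, as CPM per kilobase (RPKM, with the length taken over all annotated exons). In cuprizone libraries Mbp led at 658 ± 275 RPKM, followed by Gpm6b at 261 ± 89.2, Cldn11 at 168 ± 41.5, Pllp at 118 ± 49.3, Mobp at 70.0 ± 30.4, Cmtm5 at 67.4 ± 20.6, Mal at 46.2 ± 28.6 and Tspan2 at 29.6 ± 12.6 RPKM (SD, n = 3). From Gpm6b downward the ranges of each neighbouring pair in this order overlapped. In control libraries the order was Mbp at 4058 ± 1073, Cldn11 at 1356 ± 125, Mal at 1233 ± 83.2, Mobp at 948 ± 255, Gpm6b at 400 ± 18.7, Pllp at 396 ± 43.2, Cmtm5 at 233 ± 22.2 and Tspan2 at 201 ± 11.7 RPKM. There the ranges of Gpm6b and Pllp overlapped, as did those of Cmtm5 and Tspan2 and those of Mal and its neighbours Cldn11 and Mobp, while the other neighbours were apart. Among 16313 genes with a length, Mbp ranked 26 in cuprizone and 2 in control libraries, Mal 983 in cuprizone and 19 in control libraries, and Gpm6b 100 in cuprizone and 72 in control libraries.

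The ratio of each gene to Mbp within a library shows whether the genes fell by unequal amounts, whatever the scaling. The log2 ratio of Mobp to Mbp was -3.48, -3.52 and -3.64 in cuprizone replicates 30, 31 and 32 and -2.42, -2.43 and -2.36 in control replicates 24, 26 and 27. Libraries of a group were nearly equal, with an SD of 0.08 in cuprizone and 0.04 in control, and the groups were 1.14 apart. Mal lay further from Mbp in cuprizone, with a log2 ratio of -5.53 ± 0.35 against -3.29 ± 0.31 in control libraries (SD, n = 3 each).

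In the other direction, Gpm6b had a log2 ratio to Mbp of -1.92 ± 0.58 in cuprizone and -3.90 ± 0.37 in control libraries. Pllp was at -4.51 ± 0.23 in cuprizone and -5.35 ± 0.44 in control libraries. Cmtm5 was at -6.06 ± 0.39 in cuprizone and -6.90 ± 0.27 in control libraries. These 5 ratios did not overlap between the groups and each had an exact 2-sided permutation p of 0.1, the smallest possible, or 0.14 adjusted over the 7 ratios. Because Mbp itself fell (log2 fold change -2.62), a gene whose level did not change would also lie higher relative to it. How many of all genes tested have a ratio to Mbp that keeps the groups apart was not computed. For Cldn11 and Tspan2 the groups overlapped, with differences of -0.38 and -0.18 that were within the spread of the libraries.

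**Figure D3:**
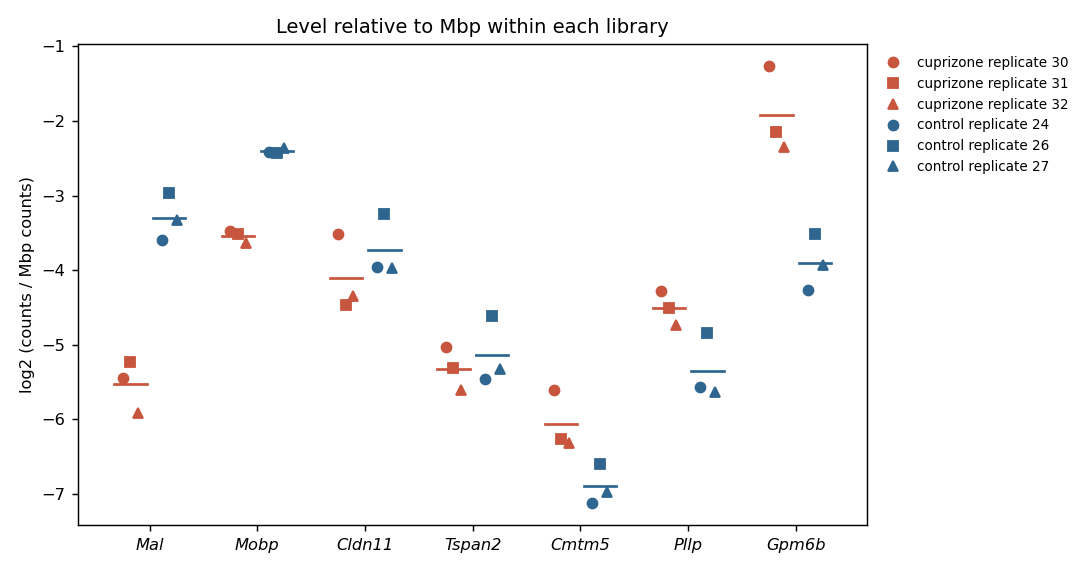
Log2 ratio of the counts of 7 compact myelin genes to those of Mbp in the same library, with points for libraries and bars for group means. Mal and Mobp lie lower in cuprizone than in control, Pllp, Cmtm5 and Gpm6b lie higher, and the Mobp points of each group almost coincide.

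The steadiness of the Mobp to Mbp ratio was set against all genes after its values had been seen, as a description with no test. The SD of the log2 ratio to Mbp within groups, pooled over both groups, was 0.064 for Mobp, which ranked 3 among 12328 genes with a mean of at least 5 CPM. Ahead of it were only Bcas1, which encodes a protein of early myelinating oligodendrocytes (0.038), and Bcas1os1 on its opposite strand (0.035), whose reads cannot be told apart without a known strand setting. Bcas1 was at 501, 1108 and 635 CPM in cuprizone replicates 30, 31 and 32 and at 1533, 902 and 1307 CPM in control replicates 24, 26 and 27, so that replicates 31 and 26 stood out as they did for Mbp. The next of the compact myelin genes was Mal, at 0.330 and rank 303, and Gpm6b came last at 0.486 and rank 4854. Between other compact myelin genes the steadiest pair was Pllp and Tspan2, with 0.08.

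Within-library ratios to Sox10, a transcription factor of the oligodendrocyte lineage that is on in its progenitors too, were added after the values had been seen. Sox10 itself was at 272, 428 and 231 CPM in cuprizone replicates 30, 31 and 32 and at 814, 676 and 717 CPM in control replicates 24, 26 and 27. Relative to it, 7 of the 8 genes were lower in every cuprizone library than in any control library, with log2 differences from -3.61 for Mal to -0.53 for Pllp. Gpm6b was higher relative to Sox10, at 2.22 ± 0.32 in cuprizone against 1.61 ± 0.14 in control libraries (SD, n = 3 each). Each of the 8 exact 2-sided permutation tests gave p = 0.1, also after adjustment over them. As Sox10 itself fell (log2 fold change -1.25), a gene whose level did not change would lie higher relative to it. The share of all genes tested whose ratio to Sox10 keeps the groups apart was not computed.

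In the wider families 14.3% of claudins, 10.5% of MARVEL relatives and 18.2% of tetraspanins tested passed in either direction, counts of 1, 2 and 4 genes, beside 7.57% of all genes tested. Of 19 claudins other than Cldn11, 7 were tested and 1 fell, Cldn14, whose log2 fold change was -2.23 (adjusted p = 0.0143, or 0.0594 without control replicate 26). None rose (1 at an unadjusted p under 0.05, and 0 with DESeq2 or limma-voom). Cldn10, a claudin of astrocytes among other cells and the most abundant relative by CPM, was at 116, 136 and 72.2 CPM in cuprizone replicates 30, 31 and 32 and at 115, 108 and 122 CPM in control replicates 24, 26 and 27, and the groups overlapped. Cldn12 was at a log2 fold change of 0.51 (adjusted p = 0.145) and the endothelial Cldn5 at 1.19 (adjusted p = 0.252). The median over the 7 was -0.09.

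Of 24 MARVEL relatives of Mal, Pllp and Cmtm5, 19 were tested, 1 fell and 1 rose, with a median log2 fold change of 0.23. Sypl, a relative of synaptophysin found outside neurons as well, fell to 39.6, 48.4 and 28.6 CPM in cuprizone replicates 30, 31 and 32, against 129, 153 and 135 CPM in control replicates 24, 26 and 27 (log2 fold change -1.84 ± 0.20, SE, adjusted p = 0.00314). Cmtm3, a relative of Cmtm5, rose by 0.78 ± 0.16 on the log2 scale (adjusted p = 0.0310, and up to 0.143 without cuprizone replicate 31 or 32 or control replicate 26 or 27). The synaptic vesicle genes Syp and Syngr1 and the Cmtm5 relative Cmtm4 had log2 fold changes of 0.23, 0.20 and 0.29 and did not pass.

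Of 30 tetraspanins other than Tspan2, 22 were tested, 3 fell and 1 rose, with a median of -0.17. Cd9, which did not pass, is also on the list of other myelin genes and was counted there too. Cd82, found in oligodendrocytes among many other cells, had the largest fall at -1.72 ± 0.23 (SE, adjusted p = 0.00589), with 65.7, 106 and 60.5 CPM in cuprizone replicates 30, 31 and 32 and 259, 261 and 248 CPM in control replicates 24, 26 and 27. Tspan14 and Tspan17 had log2 fold changes of -0.85 and -0.98, and Tspan4, the gene that rose, one of 0.92 (adjusted p = 0.0372, and up to 0.125 in the fits that each lack 1 of the libraries other than cuprizone replicate 32). The abundant Tspan7, Cd81 and Tspan3 had -0.23, -0.62 and -0.03 and did not pass. Gpm6a, the proteolipid nearest to Gpm6b and a gene of neurons, was at 737, 659 and 498 CPM in cuprizone replicates 30, 31 and 32 and at 445, 625 and 574 CPM in control replicates 24, 26 and 27, with overlapping groups (adjusted p = 0.611).

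Of the compact myelin genes of peripheral nerve, Pmp22, a tetraspan protein of Schwann cells that other cells make too, fell by 0.99 ± 0.12 on the log2 scale (SE, adjusted p = 0.00461). Prx, a protein of Schwann cell myelin, had a log2 fold change of 0.17 and did not pass.

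**Figure D4:**
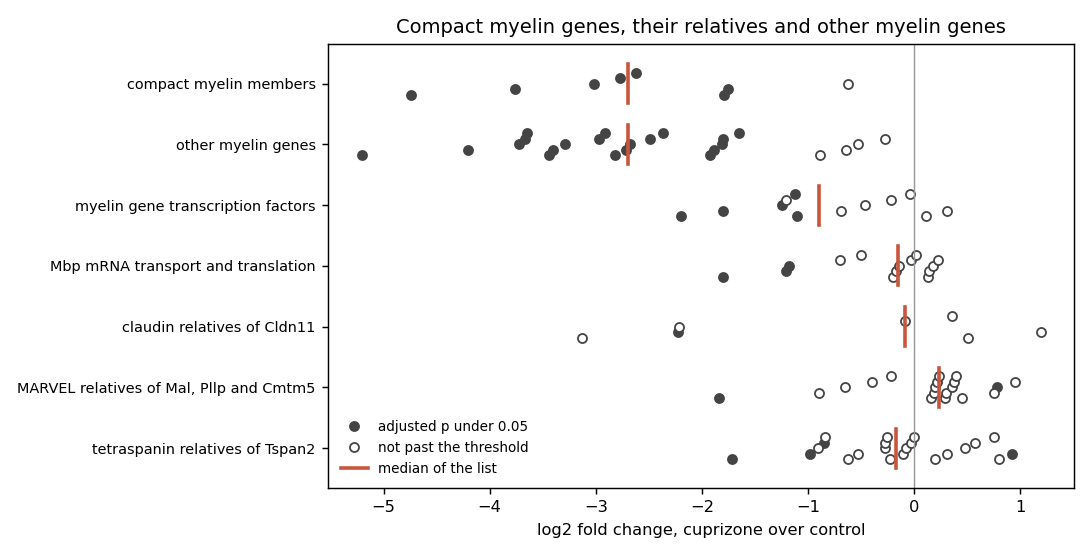
Log2 fold change of each tested gene, cuprizone over control, for the compact myelin genes, other myelin genes, myelin transcription factors, genes of Mbp mRNA transport and 3 families of relatives. Filled points passed an adjusted p of 0.05 and red bars are medians, which are -2.70 for the compact myelin genes and for the other myelin genes and -0.17 to 0.23 for the 3 families.

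Other myelin genes gave fold changes over a like range. Of 24 listed, from glycoproteins of the myelin surface to enzymes of its lipids, 20 fell and none rose (0 at an unadjusted p under 0.05, and 0 with DESeq2 or limma-voom), and their median of -2.70 equalled that of the compact myelin genes. Those that fell were 83.3% of the list, beside 7.57% of all genes tested past the threshold in either direction. Fa2h and Ppp1r14a had log2 fold changes of -3.29 and -5.20, and the abundant Cnp, Trf and Plekhb1 had -1.92, -1.81 and -1.65. The adjusted p of Trf was up to 0.0987 and that of Plekhb1 up to 0.103 without cuprizone replicate 30 or any of the 3 controls. As with Gpm6b, the genes of this list that did not pass (Sept8, Gjc3, Cd9 and Sirt2) had log2 fold changes between -0.89 and -0.28; they are named after their values were seen.

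Of 14 genes for the transport and translation of Mbp mRNA, 3 fell and none rose (0 at an unadjusted p under 0.05, and 0 with DESeq2 or limma-voom), with a median of -0.16. Past the threshold were 21.4% of the list, beside 7.57% of all genes tested. Tppp, which shapes microtubules in oligodendrocytes, had a log2 fold change of -1.80 ± 0.17 (SE, adjusted p = 0.00195). It is also on the list of other myelin genes and was counted there. Kif1b, a kinesin that moves Mbp mRNA in zebrafish, had -1.18 (adjusted p = 0.00988), and it did not pass without control replicate 26 (0.0551) or cuprizone replicate 30 (0.05). Mapt, a microtubule-associated protein, had -1.21 (adjusted p = 0.0147, and up to 0.0695 without cuprizone replicate 30 or control replicate 24 or 27). Without cuprizone replicate 30 only Tppp of the 14 passed. Qk, an RNA-binding protein that stabilises Mbp mRNA, had -0.70 and did not pass (adjusted p = 0.132).

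Of 12 transcription factors of myelin genes 5 fell and none rose (0 at an unadjusted p under 0.05, and 0 with DESeq2 or limma-voom), with a median of -0.89. The 5 were 41.7% of the list, beside 7.57% of all genes tested past the threshold in either direction. Nkx6-2 had a log2 fold change of -2.20 ± 0.34 (SE, adjusted p = 0.0109), Zfp536 one of -1.80 ± 0.32, Sox10 one of -1.25 ± 0.25, Olig1, the gene that drives the Cre, one of -1.12 ± 0.24 and Sox8 one of -1.10 ± 0.18. Myrf, which switches on myelin genes, had -1.21 with an adjusted p of 0.0734. Without cuprizone replicate 30 edgeR called 0 of the 12 (7 lower at an unadjusted p under 0.05), with Nkx6-2 at an adjusted p of 0.0507 and Sox10 at 0.116. The number called lower was 2, 1 and 2 without control replicates 24, 26 and 27, and 8 without cuprizone replicate 31. Sox10, Olig1 and Zfp536 did not pass without any 1 of the controls, with adjusted p from 0.0569 to 0.113, while Nkx6-2 passed in each of those fits.

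The genes nearest to the mean profile of the 8 compact myelin genes, by root mean square difference of log2 levels over the 6 libraries each set to its control mean, were Ndrg1 (0.10), Plekhg3 (0.12), Lpar1, Sept4 and Efhd1 (each 0.13), among 11447 candidates. Ndrg1, whose human form is mutated in a demyelinating neuropathy, was at 194 ± 90.3 CPM in cuprizone and 1199 ± 134 CPM in control libraries (SD, n = 3 each). Lpar1, a lysophosphatidic acid receptor, was at 60.6 ± 17.4 CPM in cuprizone and 362 ± 39.0 CPM in control libraries. Chosen for this likeness, the 5 genes had log2 fold changes from -2.76 to -2.49, given as a description.

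Letters before the gene starts were searched for motifs. RefSeq windows of GRCm38.p6, from 250 bases before to 50 after a start, were read for the 7 genes other than Mbp, whose sequence was not used here, in 9 windows. Sequences are given for Mal, which fell most, Mobp, which kept the steadiest ratio to Mbp, Pllp, which fell least of those that passed, and Gpm6b, which did not pass. Each runs 5′ to 3′ on the strand of the gene, up to the annotated gene, and capitals mark matches to the motifs searched:
Mal, chr2:127656696-127656945, minus strand: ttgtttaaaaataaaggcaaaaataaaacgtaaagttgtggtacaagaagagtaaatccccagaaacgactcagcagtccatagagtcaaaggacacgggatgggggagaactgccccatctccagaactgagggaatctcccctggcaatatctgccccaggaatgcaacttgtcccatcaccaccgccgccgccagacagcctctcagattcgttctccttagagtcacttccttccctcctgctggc
Mobp, chr9:120149492-120149706, plus strand: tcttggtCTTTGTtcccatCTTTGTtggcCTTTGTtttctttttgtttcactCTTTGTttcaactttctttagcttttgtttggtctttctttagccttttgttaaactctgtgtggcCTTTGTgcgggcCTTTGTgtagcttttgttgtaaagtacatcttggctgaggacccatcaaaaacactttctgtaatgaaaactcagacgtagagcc
Pllp, chr8:94696279-94696492, minus strand: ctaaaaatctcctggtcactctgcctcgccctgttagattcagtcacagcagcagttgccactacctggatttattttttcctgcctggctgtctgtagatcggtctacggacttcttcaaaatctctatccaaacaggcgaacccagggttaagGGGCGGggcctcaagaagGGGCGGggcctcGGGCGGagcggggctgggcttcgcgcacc
Gpm6b, chrX:166238693-166238910, plus strand: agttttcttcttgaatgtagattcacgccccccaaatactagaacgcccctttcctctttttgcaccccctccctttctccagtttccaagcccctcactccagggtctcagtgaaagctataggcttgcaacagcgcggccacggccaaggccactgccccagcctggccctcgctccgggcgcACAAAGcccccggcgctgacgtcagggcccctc
The motifs, read on both strands, were ACAAAG and ACAATG (SOX factors), CTGGCAC and CTGGTAC (MYRF), GGGCGG (SP1), TATAAA (the TATA box) and CAGCTG (an E-box), and no matches overlapped. ACAAAG was in 3 of the 9 windows, those of Mobp and Gpm6b and 1 of Tspan2, and in 18.7% of all 32851 windows. The Mobp window held it 6 times, each as CTTTGT on the strand of the gene, and was the only window of the table with so many. Its printed part is rich in T and holds near-copies such as cttttgt, and whether the 6 are separate sites was not tested. Such a count over all windows was made only for Mobp and for GGGCGG in Pllp, where 10.7% of windows had at least as many. GGGCGG was in the windows of Pllp, 3 times, and Cldn11, and in 35.7% of all windows. CAGCTG was in the 2 overlapping windows of Cmtm5 and in 16.3% of all windows. The second SOX motif was in none of the 9 windows and in 12.6% of all. The first and second MYRF motifs were likewise in none, with 5.0% and 2.2% of all, and the TATA box in none, with 13.6% of all. The Mal window held none of the motifs.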

How the data were processed

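RNA bound to HA-tagged ribosomes of corpus callosum was sequenced in 6 libraries. The authors deposited one table of raw counts, with a row for each Ensembl mouse gene. Per the submitters' processing notes, bcl2fastq 2.17 and build mm10 were used. Steps not given in the sources used here include the aligner, counter, annotation release and strand setting. Names, coordinates and exonic lengths came from GENCODE M21 (37607 of 39017 identifiers matched). The members, gene lists and tests were chosen with earlier results of these data known.

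The main test used edgeR 4.0.16 (R 4.3.3): filterByExpr (minimum count 10, minimum total 15), TMM factors, glmQLFit with robust estimation and glmQLFTest, 2-sided, adjusted by Benjamini-Hochberg over 16569 genes. CPM and RPKM use TMM-scaled library sizes, and log2 profiles a prior count of 2. A standard error is the fold change over the square root of F. Single values per library were compared by exact permutation over 20 splits. Alternatives were other scaling factors and filters, DESeq2 1.42.0, limma-voom (limma 3.58.1) and leaving out each library. The procedure was also run on counts simulated from the spread fitted to these data, with the outcome not reported here. Genes named are the 8 members, the 3 most abundant and the 3 with the smallest adjusted p of each list (some listed genes the rule takes are not reported here), the main markers and the 5 genes nearest in profile; Bcas1 was added later. The planned protein features were not computed.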

Additional observations from a re-analysis of the deposited data

How the results depend on the processing

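Under the 7 alternatives of scaling, filter and tool, 7 of the 8 compact myelin genes fell and none rose, and with a library left out 5 to 7 fell. Mobp, Mal, Cldn11, Cmtm5 and Tspan2 passed in each alternative run, Mbp did not without cuprizone replicate 30, Pllp did not without cuprizone replicate 30 or control replicate 24 or 26, and Gpm6b passed in none, with adjusted p from 0.13 to 0.471. The share of all counts differed by -3.81 percentage points (-4.33 to -3.37 with a library left out, -1.24 without Mbp). The log2 ratio of Tspan2 to Mbp was lower by 0.18 in cuprizone and higher by 0.08 without control replicate 26 (-0.35 to 0.08 with a library left out); the cause was not tested. The other 6 ratios kept their sign.

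Over all genes, 310 were higher and 945 lower, 65 to 464 and 474 to 963 with a library left out, and DESeq2 called 862 higher. With a library left out, 0 to 1 claudins fell and 0 to 1 rose, 1 to 2 MARVEL relatives fell and 0 to 1 rose, 3 to 5 tetraspanins fell and 0 to 2 rose, 1 to 3 genes of Mbp mRNA transport fell, and 0 to 8 transcription factors fell and 0 to 1 rose. DESeq2 called 2 MARVEL relatives, 7 tetraspanins and 5 genes of Mbp mRNA transport lower. Over all genes DESeq2 also called more lower than the 945 of the main fit, so these larger counts alone do not set those lists apart. The median of all genes stayed between 0.01 and 0.08 (log2) in every fit. No paired analysis was possible because the groups share no replicate number. Gpm6b had at least 19088 counts in each library, so the spread between libraries, not counting error, limits its comparison.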
